A study of Mus musculus with 9 samples.

Results

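The data compared here are the accessible chromatin regions of fibroblasts and of the Thy-1-negative cells that these fibroblasts had given rise to by day 6 of reprogramming. D0 is a library of mouse embryonic fibroblasts (MEFs) before reprogramming, with no sort, and D6T- is a library of cells sorted as Thy-1-negative on day 6. Overlapping peaks of each library were merged on chromosomes 1 to 19, which gave 80012 regions in D0 and 129532 in D6T-, out of 606963 merged regions over all 9 libraries. Regions of either library that shared at least 1 bp with the other were called common, those of D6T- alone gained, and those of D0 alone lost. This gave 154569 regions, of which 77982 were gained, 25450 lost and 51137 common.

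The MEFs, in which a GFP tag marked Oct4, were infected with pMXs retroviruses for Sox2, Klf4, Oct4 and c-Myc, then kept in feeder-free medium with LIF, bFGF, CHIR99021 and ascorbic acid. D6 siNT and D6 siH3.3 are 2 further libraries of day 6 Thy-1-negative cells, from cultures given a non-targeting siRNA or an siRNA against the histone variant H3.3 before reprogramming began. Neither entered the definition of the sets, so their calls were counted against every gained and lost region. Thy-1 marks the fibroblast surface and a sort for its absence leaves a mixed population, so a change of signal in every cell and a change in the share of cells cannot be told apart. Every condition had 1 library, and no test between conditions could be made. Intervals below cover counting error or the sampling of regions only.

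ATAC-Seq reads out where a transposase can insert sequencing adapters, which it does mostly in DNA free of nucleosomes such as promoters and enhancers. In fibroblasts many enhancers carry sites for AP-1 (Fos and Jun dimers), TEAD and RUNX factors. Oct4 and Sox2 bind an octamer and a short SOX site, often side by side, and Klf4 binds a GC-rich element. During reprogramming, MEFs lose mesenchymal character and take up epithelial features before pluripotency genes become active.

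The sequences below are the 200 bases around the highest summit of regions that the results turn on (mm9, plus strand, 5′ to 3′). Capitals mark matches on either strand to AP-1 (TGANTCA), SOX (ACAATG), octamer (ATGCAAAT) or TEAD (GGAATG). The first 4 are the gained regions in unique sequence with the highest D6T- level among those also called in both siRNA libraries, named by the gene that holds them or the nearest start site.
Zfp68, chr5:139062102-139062301: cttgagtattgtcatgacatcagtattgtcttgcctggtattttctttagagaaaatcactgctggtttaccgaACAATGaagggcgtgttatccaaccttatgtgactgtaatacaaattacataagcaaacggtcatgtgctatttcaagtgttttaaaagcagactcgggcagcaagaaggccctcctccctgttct
Slit3, chr11:35337439-35337638: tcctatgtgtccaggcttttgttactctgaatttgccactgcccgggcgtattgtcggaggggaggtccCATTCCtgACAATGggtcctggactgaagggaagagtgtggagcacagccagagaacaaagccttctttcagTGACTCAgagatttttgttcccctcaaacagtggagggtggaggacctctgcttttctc
Lrrk2, chr15:91565845-91566044: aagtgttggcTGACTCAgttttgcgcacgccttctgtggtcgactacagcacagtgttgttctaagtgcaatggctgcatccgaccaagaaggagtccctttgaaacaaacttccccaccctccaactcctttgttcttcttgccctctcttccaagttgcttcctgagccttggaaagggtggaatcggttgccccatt
Gm10701, chr9:24145909-24146108: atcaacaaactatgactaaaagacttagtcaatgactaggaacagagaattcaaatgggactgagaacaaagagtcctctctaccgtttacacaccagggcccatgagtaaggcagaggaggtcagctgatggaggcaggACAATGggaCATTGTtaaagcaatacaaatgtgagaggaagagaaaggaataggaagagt
The next are gained promoter regions, that of Krt8 with the highest D6T- level among the epithelial genes and that of Dppa3 with a pair of octamers.
Krt8, chr15:101835834-101836033: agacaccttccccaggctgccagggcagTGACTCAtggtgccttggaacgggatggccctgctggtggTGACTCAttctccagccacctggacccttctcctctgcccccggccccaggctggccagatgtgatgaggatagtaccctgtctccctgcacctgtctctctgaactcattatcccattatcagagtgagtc
Dppa3, chr6:122574602-122574801: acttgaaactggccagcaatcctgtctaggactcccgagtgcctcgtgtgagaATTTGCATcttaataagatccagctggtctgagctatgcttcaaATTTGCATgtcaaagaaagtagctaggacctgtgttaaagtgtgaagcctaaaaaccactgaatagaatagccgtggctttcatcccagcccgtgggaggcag
The next 3 are among the 4 lost regions with the highest D0 levels and no siRNA library call, and the last is the lost promoter region of Thy1.
Gm12024, chr11:18490617-18490816: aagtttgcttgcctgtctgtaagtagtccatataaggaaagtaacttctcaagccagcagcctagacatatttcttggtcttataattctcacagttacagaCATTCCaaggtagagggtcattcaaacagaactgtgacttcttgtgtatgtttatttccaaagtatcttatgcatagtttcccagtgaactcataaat
A730032A03Rik, chr2:164000466-164000665: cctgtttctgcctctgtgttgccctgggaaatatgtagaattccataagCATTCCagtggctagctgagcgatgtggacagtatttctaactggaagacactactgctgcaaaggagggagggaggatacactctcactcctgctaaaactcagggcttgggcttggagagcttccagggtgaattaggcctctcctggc
Ppfibp2, chr7:114863249-114863448: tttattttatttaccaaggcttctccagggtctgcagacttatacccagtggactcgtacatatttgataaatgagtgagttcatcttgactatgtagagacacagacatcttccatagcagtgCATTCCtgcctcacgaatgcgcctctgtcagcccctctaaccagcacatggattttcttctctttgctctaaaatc
Thy1, chr9:43851157-43851356: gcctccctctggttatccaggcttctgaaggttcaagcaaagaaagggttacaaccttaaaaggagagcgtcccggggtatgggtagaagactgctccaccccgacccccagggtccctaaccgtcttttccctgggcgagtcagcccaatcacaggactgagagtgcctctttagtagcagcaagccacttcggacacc
The sequences of Slit3, Lrrk2 and Krt8 hold AP-1 matches, and those of Zfp68, Slit3 and Gm10701 hold SOX matches. Each of the first 3 lost sequences holds a TEAD match and no AP-1 match, while the remaining region of those 4, not printed, holds both, and the Thy1 sequence holds none of the 4 motifs.

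Gained regions made up 50.5% of the 154569 regions and lost regions 16.5%. In terms of each library, 60.2% of the D6T- regions were gained and 31.8% of the D0 regions were lost. The level of a region was taken as its highest pileup of tags per 1000000 tags of the library (CPM). D0 held 31714845 tags and its weakest called region reached 11 tags, or 0.347 CPM. D6T- held 21390800 tags and its weakest called region reached 8 tags, or 0.374 CPM. A region that is absent from a library was therefore below about this level there, and was not shown to be closed. Gained regions had a median of 0.701 CPM in D6T-, and 2817 of them reached 2 CPM. Lost regions had a median of 0.441 CPM in D0, their highest was 1.89 CPM, and 0 of them reached 2 CPM. Lost regions thus lay close to the calling limit. When only the 80012 strongest regions of each library were compared, 36609 were gained and 33380 were lost. Equal numbers of regions make these counts close to each other by construction, so the count of gained regions depends on how many regions are compared.

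**Figure D1:**
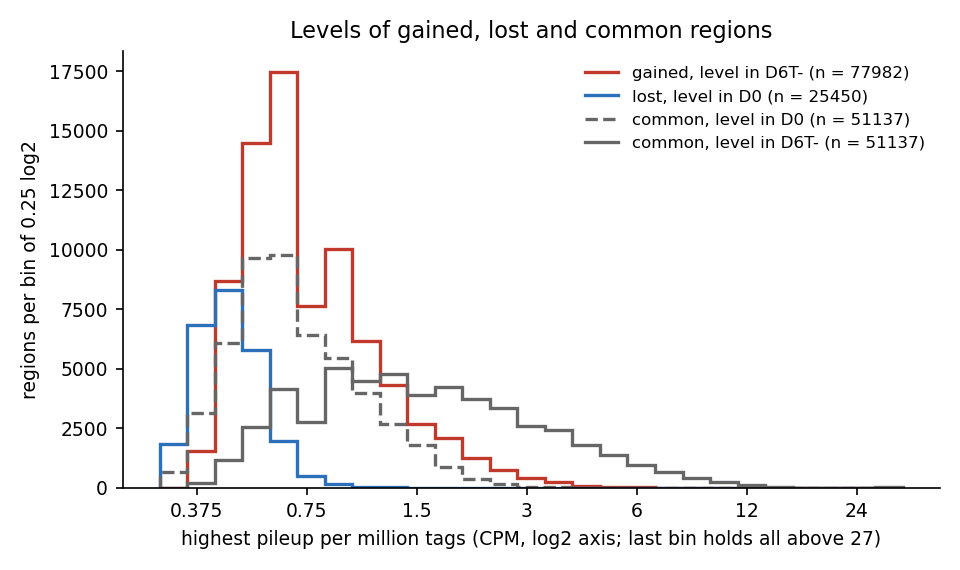
Number of regions (vertical axis, per bin of 0.25 log2) by highest pileup per 1000000 tags (horizontal axis, CPM, log2 scale) for gained regions in D6T-, lost regions in D0, and common regions in each library. Lost regions, with a median of 0.441 CPM, lie at the low end, and common regions lie higher in D6T- (median 1.45 CPM) than in D0 (median 0.662 CPM).

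Next, the gained regions were looked up in the siRNA libraries. D6 siNT held a call at 19.1% of the gained regions and D6 siH3.3 at 19.5%. Either library held a call at 20101 of 77982 gained regions, or 25.8% (95% Wilson interval 25.5 to 26.1), and both at 10018, or 12.8%. These shares depend on how many regions are compared. With the 45312 strongest regions of each library, 73.5% of gained and 13.8% of lost regions had a call in either siRNA library. The same lookup gave 38.9% for all D6T- regions, 58.9% for common regions and 1.71% (435 of 25450) for lost regions. Over all D0 regions, lost and common, 40.8% had a call. Both siRNA libraries were called more sparsely than D6T-, with 45312 and 46211 regions, at lowest called levels of 0.413 and 0.429 CPM.

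The share of gained regions with a call depended on their level in D6T-. It was 5.64% below 0.5 CPM, 27.0% from 0.75 to 1 CPM, 53.6% from 1 to 1.5 CPM and 94.4% from 2 to 3 CPM. Among the 622 regions of 3 CPM and more it was 90.2%. Of these, 549 lay in unique sequence and 543 of them, or 98.9%, had a call. The other 73 lay in sequence of which under 50% of the sampled words of 51 bases occur once in the genome (called non-unique here), and 18 of them, or 24.7%, had a call. Common regions followed nearly the same course with D6T- level, from 7.94% below 0.5 CPM to 99.9% at 3 CPM and above. Lost regions did not reach these shares, with 8.84% of the 475 regions between 0.75 and 1 CPM in D0. At the same level of D6T-, the share among gained regions was 27.0%.

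**Figure D2:**
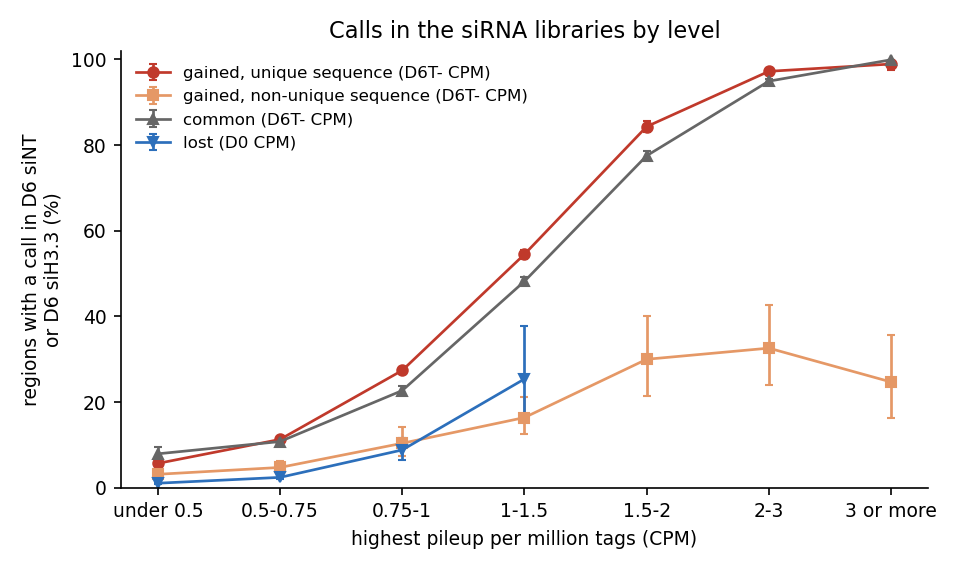
Share of regions with a call in D6 siNT or D6 siH3.3 (vertical axis, %) by the region's level in the library that defined it (horizontal axis, CPM bins), with 95% Wilson intervals as bars and bins of under 50 regions not drawn. Gained regions in unique sequence run from 5.70% to 98.9%, while those in non-unique sequence stay at or below 32.6%.

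Gained regions that were called in the siRNA libraries were weaker there than in D6T-. Their median log2 ratio was -0.81 in D6 siNT (n = 14893, SD 0.59) and -0.75 in D6 siH3.3 (n = 15226, SD 0.59). For common regions these medians were -1.40 and -1.33. Called regions were thus mostly lower in both of these libraries than in D6T-. The medians of gained and common regions cannot be compared, since only regions above the calling limit of the siRNA libraries enter, and their D6T- medians differed (1.22 and 2.43 CPM).

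On the other days, 37.1% of the gained regions were called in D3, 14.4% in D9T-, 20.4% in D12S+ (day 12, SSEA-1-positive), 15.8% in D16S+ and 16.0% in iPSCs. Lost regions were called again in 16.3% of cases in D3, 0.381% in D9T-, 1.75% in D12S+, 2.48% in D16S+ and 5.19% in iPSCs. The 549 gained regions of 3 CPM and more in unique sequence were called nearly throughout on day 3 (99.8%) and day 9 (98.2%), in 88.2% of cases in D12S+, 41.3% in D16S+ and 35.5% in iPSCs. The 73 such regions in non-unique sequence had another course. They were called at 100% in D3 and D12S+ and 94.5% in D16S+, against 17.8% in D9T- and 16.4% in iPSCs. The share of regions in non-unique sequence was 4.94% in D3, 4.60% in D12S+ and 8.33% in D16S+, 2.13% in D6T-, and 1.62% to 2.92% in the other libraries. The methods state that reads mapping to more than 1 locus were removed, yet strong peaks in repeated sequence were present. The peak lists cannot settle this, so gained calls and levels in such sequence are uncertain.

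The highest of all gained regions belonged to this non-unique class, and all 10 of the top 10 did. The first lay at chr6:47706922-47708293 and reached 45.2 CPM in D6T- and 36.9 CPM in D3, with no call in D0, in either siRNA library or in D9T-, and words that occur a median of 16 times in the genome. By the rule of a call in both siRNA libraries, the 5 highest gained regions were chr10:81167092-81168066 (18.6 CPM), chr1:173009157-173012898 near Fcgr3 (16.1 CPM), chr10:81326302-81327200 (13.4 CPM), chr17:80867690-80868440 in Sos1 (8.18 CPM) and chr5:139061701-139062694 upstream of Zfp68 (7.85 CPM). Only the last of these 5 lay in unique sequence. The first 3 had 0.689 to 0.964 CPM in the siRNA libraries, close to the level at which these begin to call.

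In unique sequence the 5 highest gained regions were much closer between the day 6 libraries. The Zfp68 promoter region held 168 tags in D6T-, or 7.85 CPM (exact 95% Poisson interval 6.71 to 9.14), against 4.50 CPM in D6 siNT and 3.91 CPM in D6 siH3.3. The region in an intron of Slit3, which encodes a secreted guidance ligand, had 7.25 CPM in D6T-, 2.94 in D6 siNT and 2.68 in D6 siH3.3. The Lrrk2 region, 3.43 kb from a start site of this kinase gene, had 7.25, 3.58 and 4.02 CPM. The region at Gm10701 had 7.06, 2.85 and 3.21 CPM, and that at chr1:30712891-30714013, 63.5 kb from the nearest start site, had 6.50, 3.35 and 2.79 CPM. All 5 were called in D3 at 2.12 to 2.65 CPM and in D9T- at 2.95 to 5.07 CPM. By definition none of the 5 had a call in D0. In iPSCs only the Slit3 region was called, at 0.677 CPM.

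The highest lost regions were far weaker. The region at chr11:18490530-18491009, 12.2 kb from Gm12024, held 60 tags in D0, or 1.89 CPM (1.44 to 2.44), and had no call in any of the other 8 libraries. The next in level lay near Mc4r on chromosome 18, at 1.64 CPM. Those upstream of A730032A03Rik and in Ppfibp2, which encodes a liprin, had 1.58 and 1.55 CPM, and the former was called in D3 at 0.695 CPM. The fifth, in the gene model Gm2792, also had 1.55 CPM, was called in D3 at 0.628 CPM, and lay in sequence of which 0.533 of the sampled words are unique. By the rule of selection, D6T- and both siRNA libraries held no call at these 5 lost regions. In the remaining libraries they were not called either, except in D3 as given. Of these 5 regions, 4 held a TEAD match.

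The common regions were mostly higher in D6T-. Their median log2 ratio of CPM was 1.13 (SD over regions 0.82, n = 51137), and 91.7% had the higher value in D6T-. Of all common regions, 28596 (55.9%) were at least 2-fold higher and 111 (0.217%) at least 2-fold lower in D6T-. The whole distribution was displaced, so the values of single regions are best read against the median of 1.13. Once the ratios were centred on it, 6366 regions lay at least 2-fold above and 5780 at least 2-fold below. Ratios of the fold enrichment that the peak caller computed had a median of 0.96. Over 5 equal groups of regions by D0 level, the median ranged from 1.02 to 1.42. Common regions called in D6 siNT and D6 siH3.3 were lower there than in D6T-, with the median log2 ratios of -1.40 and -1.33 given above. The levels of these libraries were not set against D0 over all common regions. The rise given here is therefore between the D0 and D6T- libraries alone.

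Promoters stood above the other classes in this ratio. Common regions with their midpoint up to 3 kb upstream of a transcription start site (TSS) had a median log2 ratio of 1.68 (SD 0.78, n = 10494). Those in gene bodies had 1.10 (SD 0.80, n = 22331) and intergenic ones 0.91 (SD 0.76, n = 18312). At least 2-fold higher were 77.3%, 54.4% and 45.4% of these classes. The spreads within the classes were as large as the differences between their medians. Base composition moved with the ratio. The 10% of common regions with the highest ratio had a median GC content of 62.0% and at least 8 CpG in 65.3% of windows. The 10% with the lowest ratio had 47.0% and 2.72%.

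**Figure D3:**
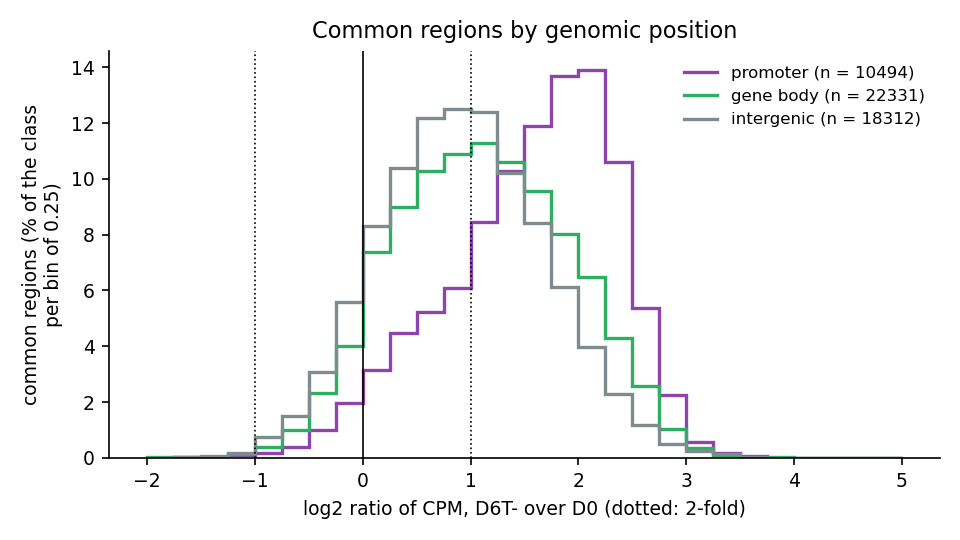
Distribution of the log2 ratio of CPM, D6T- over D0 (horizontal axis), over common regions, as a share of each class per bin of 0.25 (vertical axis), for promoters, gene bodies and intergenic regions; dotted lines mark 2-fold. Promoters peak furthest to the right, with a median of 1.68 against 1.10 and 0.91.

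Among common regions with at least 20 tags in the lower library, the highest ratios were again in non-unique sequence, led by a region at Fcgr3 (log2 ratio 4.66). In unique sequence for every sampled word, the highest was a region in an intron of Tek, the gene of an endothelial receptor kinase, which went from 0.757 CPM in D0 (24 tags) to 9.21 CPM in D6T- (197 tags), a log2 ratio of 3.61. It had 2.43 CPM in D6 siNT and 3.21 CPM in D6 siH3.3. The promoter region of Gm13375 (3.52) and a region at chr8:63252026-63252756 with an AP-1 match (3.50) followed. At the other end, the log2 ratio was -1.68 at chr7:12595668-12596342, -1.33 in Sos2, -1.18 in Pisd-ps2 and -1.16 upstream of Dux.

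Gained regions lay away from promoters more often than common ones did. Of all 154569 regions, 14.3% were at promoters. The share was 11.4% for gained regions (95% Wilson interval 11.2 to 11.7), 10.5% for lost (10.1 to 10.9) and 20.5% for common regions (20.2 to 20.9). With promoters reaching from 1 kb before to 100 bp after the TSS, the shares were 6.55% for gained and 4.52% for lost regions. Gained regions were intergenic in 42.2% of cases and lost regions in 36.2%, while 53.3% of the lost regions lay in gene bodies against 46.4% of the gained ones. The median distance from the summit to the nearest TSS was 16.4 kb for gained, 13.2 kb for lost and 9.68 kb for common regions.

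The sequence under the summits differed between the sets. AP-1 matches were present in 32.0% of gained windows (95% Wilson interval 31.6 to 32.3), 36.8% of common and 12.1% of lost windows (11.7 to 12.5), beside 30.3% over all regions. For lost regions the share was 9.96% below 0.5 CPM in D0, 15.8% from 0.5 to 0.75, 26.7% of 475 from 0.75 to 1 and 18.6% of 59 from 1 to 1.5 CPM, and for gained regions it was 23.8%, 29.9%, 33.9% and 38.3% at the same levels in D6T-. When only the stronger 50% of the regions of each library were compared, 29.6% of lost and 37.3% of gained windows had a match, but lost regions then include D0 regions whose D6T- call was among the weaker ones. The order of the sets was the same in windows of low, middle and high GC content, divided at 45.5% and 52.0%. At low GC 40.0% of gained, 19.3% of lost and 55.6% of common windows had a match, at middle GC 32.7%, 12.2% and 46.4%, and at high GC 17.0%, 7.30% and 19.4%.

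SOX matches were more frequent in gained windows (17.3%) than in common (10.3%) or lost ones (9.74%), beside 13.8% over all regions. Octamers were found in 2.13% of gained, 1.10% of common and 0.821% of lost windows (1.57% over all), and KLF matches (GGGNGTGG) in 10.1%, 9.87% and 5.39% (9.25% over all). Among the 10018 gained regions called in both siRNA libraries, SOX reached 26.4% (25.5 to 27.2), octamer 3.77% (3.42 to 4.16) and KLF 15.1% (14.4 to 15.8), against 15.1%, 1.78% and 8.73% of the 57881 gained regions called in neither. Such calls were more frequent at high D6T- levels, and the motif shares were also higher there, with SOX in 14.4% of gained regions below 0.5 CPM and 25.2% from 1.5 CPM, KLF in 9.22% and 13.9% and octamer in 1.82% and 2.95%. The parts of level and of the siRNA calls were not separated. An octamer and a SOX match in the same window occurred in 0.968% of the former, in 0.450% of all gained, 0.0747% of lost and 0.111% of common windows. AP-1 was present in 34.4% of gained regions called in both and 31.9% of those called in neither. Its share also rose with D6T- level, from 23.8% below 0.5 CPM to 41.1% from 1.5 CPM, so these 2 shares were not compared at like level. CTCF, which binds insulators, matched 2.79% of gained windows and of all windows, 3.94% of common and 0.472% of lost windows, and 1.03% of the gained windows called in both siRNA libraries.

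**Figure D4:**
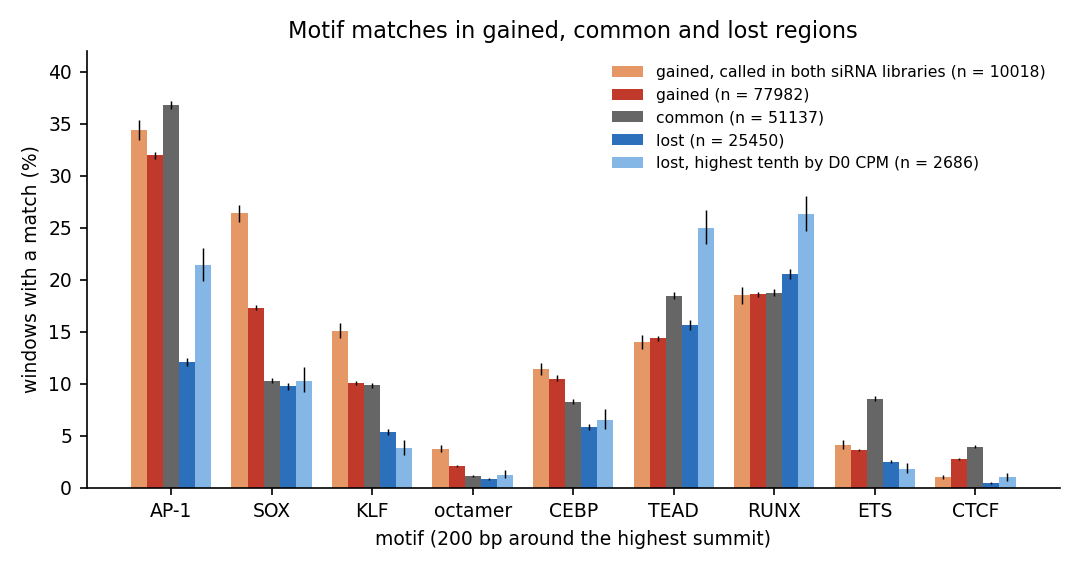
Share of 200 bp windows with a motif match (vertical axis, %; bars from 0 with 95% Wilson intervals) for 9 motifs in gained regions called in both siRNA libraries, all gained, common and lost regions, and the 10% of lost regions highest in D0. SOX, KLF and octamer are most frequent in gained regions called in both siRNA libraries, TEAD and RUNX in the highest lost regions (25.0% and 26.3%).

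Lost regions held TEAD and RUNX matches in 15.6% and 20.5% of windows, beside 15.9% and 18.9% over all regions, where RUNX was read as TGTGGT. These shares were larger in the stronger lost regions. For the 2686 lost regions highest in D0, TEAD was found in 25.0% (23.4 to 26.7), RUNX in 26.3% (24.7 to 28.0) and AP-1 in 21.4% (19.9 to 23.0). For the 8323 gained regions highest in D6T-, the shares were 13.5%, 18.3% and 40.6%. At like levels, TEAD was present in 13.9% of lost and 13.8% of gained regions below 0.5 CPM, where 66.6% of the lost regions lay. The shares were 18% and 14.8% from 0.5 to 0.75 CPM. From 0.75 to 1 CPM it was present in 34.7% of 475 lost regions (30.6 to 39.1) and 14.4% of 13573 gained regions (13.8 to 15.0), and from 1 to 1.5 CPM in 23.7% of 59 and 14.0% of 11779. Common regions showed the same split along their ratio. Those with a TEAD match had a median log2 ratio of 0.88 and those without one 1.19, while an ETS match (CGGAAG, in 5.08% of all windows) went with 1.81 against 1.07 and a KLF match with 1.51 against 1.09. In the 10% with the lowest ratio, 26.8% of windows had a TEAD match and 2.23% an ETS match, and in the 10% with the highest ratio 10.2% and 20.2%. GC content moved with these motifs, as given above, and its part was not tested.

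Lost regions were grouped along the chromosomes. A lost neighbour lay within 2 kb of 37.0% of the lost regions, compared with 24.9% for gained and 13.6% for common regions among their own kind. The 24 windows of 1 Mb with the most lost regions, of 2409 windows with any region, held 13.0% of all lost regions but 1.20% of the gained and 2.16% of the common ones. They held 108 to 206 lost regions each, while the median window held 4. The first was on chromosome 4 around Prdm16, the second on chromosome 11 around Rbfox3 and the next on chromosome 4 around Igsf21. In the Rbfox3 window, of 194 lost regions 44 were called in D3, 10 in iPSCs and 1 in either siRNA library, and their median D0 level was 0.441 CPM. The median GC content of the 24 windows' regions was 53.2%, and 47.0% over all windows. Windows with many gained regions were less extreme, with 70 to 97 gained regions and a median of 33.0 over all windows. Rbfox3, which encodes a neuronal splicing factor, alone held 149 lost regions over 422 kb, beside 3 gained and 9 common ones. Atp2b2, a calcium pump gene, held 96, Cdh4 held 79 and Igsf21 69. The gene models with the most gained regions were long ones, namely Gm20388 (207 over 4435 kb, which overlaps other genes and also held 257 lost regions), Fgfr2 (168 over the 3009 kb of its annotated model), Pde4d (64), Auts2 (58) and Dlg2 (58). Spans are those of the annotation, and regions in other genes inside a span were counted too.

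At the level of genes, 44.5% of all 34653 genes had a gained region from 3 kb upstream to the end of the gene and 16.8% a lost one. For protein-coding genes, of median length 15.5 kb, these shares were 57.6% and 23.1%, and in the promoter alone 30.5% and 7.05%. The lists below are read against these values.

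Epithelial genes held gained promoter regions in 17 of 26 cases (65.4%, beside 30.5% of protein-coding genes) and a lost promoter region in 1, St14, which encodes a membrane protease. The lost region lay upstream of an annotated start site inside St14. The D6T- levels of the 25 gained regions concerned ranged from 0.421 to 2.90 CPM with a median of 0.654. The region 1161 bp from the nearest start site at Krt8, an intermediate filament gene of simple epithelia, was the highest, with 0.728 CPM in D3, 2.90 in D6T-, 1.15 in D6 siNT and 0.964 in D6 siH3.3. The tight junction gene Cldn3 had 0.562, 1.54, 0.643 and 1.07 CPM in the same order. Both genes were called in all 4 of these libraries, and by definition had no call at these regions in D0. Of the 17 genes, 11 had a siRNA library call at a gained promoter region, 13 a call in D12S+ and 14 in iPSCs. By region, 13 of the 25 had a siRNA library call, beside 25.8% of all gained regions. Counts by gene pool several regions and are not read against shares of regions. The splicing regulators Esrp1 and Esrp2, at up to 0.841 and 1.03 CPM in D6T-, reached 3.12 and 1.42 CPM in D12S+ and 2.79 and 2.08 CPM in D16S+. Cdh1 and Epcam, which encode the epithelial adhesion molecules E-cadherin and EpCAM, had 2 and 1 gained regions outside the promoter. No region of either library lay at Cldn7 or Rab25.

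Pluripotency genes had a gained promoter region in 12 of 28 cases (42.9%) and a lost one in 3, Esrrb, Lin28a and Tet2. The lost regions of Esrrb and Tet2 lay upstream of annotated start sites inside these genes. The region at the beginning of the Tet2 gene was common, at 0.883 CPM in D0 and 3.93 in D6T-. Fbxo15, an Oct4 and Sox2 target, was the highest of the gained ones, at 1.59 CPM in D6T-, 0.331 in D3, 0.643 in both siRNA libraries and 2.60 in D16S+. Mycn, a Myc family gene, had 1.03 CPM at its start site and a call of 0.643 CPM in D6 siH3.3, and none in D6 siNT. Dppa3, a germline and early embryo gene, had 0.841 CPM in D6T-, 0.482 in D6 siH3.3 and 1.43 in iPSCs. Sall4, a zinc finger factor of stem cells, had 3 gained promoter regions of 0.514 to 0.748 CPM and Tdh, a threonine dehydrogenase gene, 1 of 0.748 CPM. Neither had a siRNA library call there, and both were called in D12S+, at up to 1.65 and 1.87 CPM. Of the 12 genes, 4 had a siRNA library call and 9 a call in iPSCs. By region, 5 of the 16 gained promoter regions of this list had a siRNA library call, beside 25.8% of all gained regions. No region of either library was found at 6 of the 28 genes, which were Nanog, Zfp42, Dppa2, Dppa4, Dppa5a and Otx2. The common regions at promoters of this list had a median log2 ratio of 1.80 (11 regions, 0.68 to 2.93), beside 1.68 for all common promoter regions. The highest was at the start site of Klf5, from 0.914 to 6.97 CPM.

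**Figure D5:**
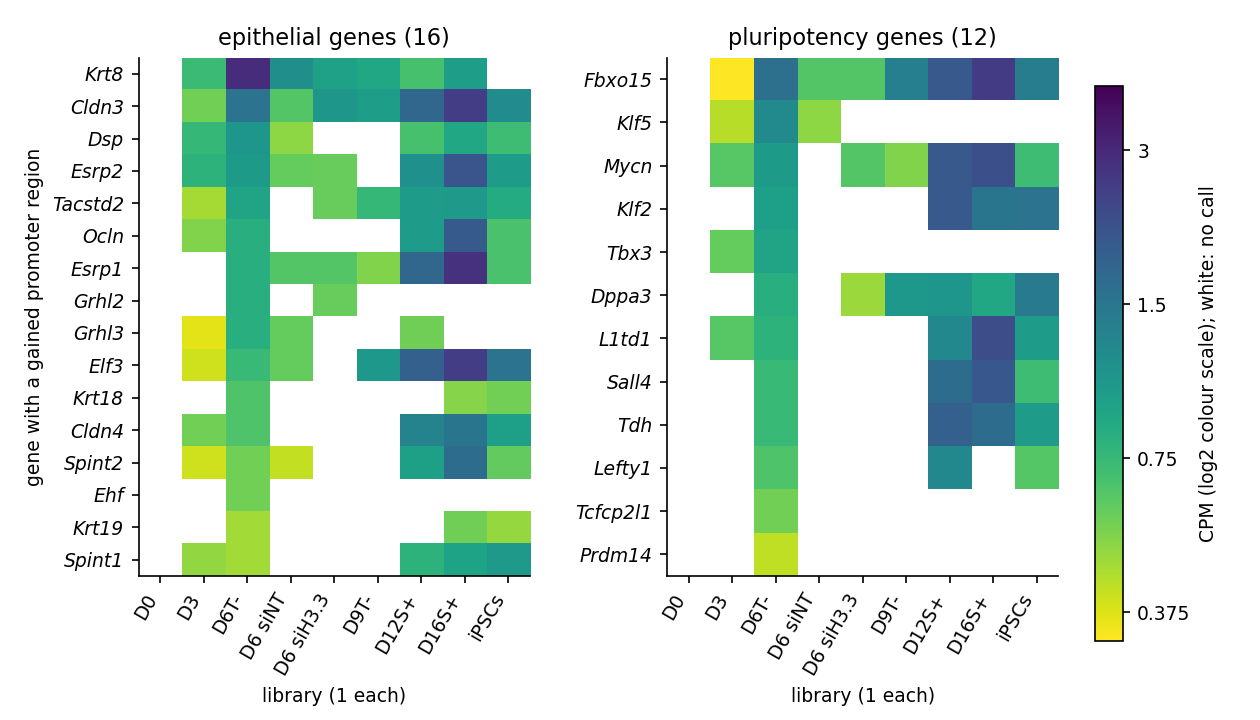
Level (colour, CPM on a log2 scale; white where no region was called) of the strongest gained promoter region of each epithelial gene (left, 16 of the 17 genes) and pluripotency gene (right, 12 genes) in the 9 libraries (horizontal axis). The D0 column is empty by definition; Krt8 and Cldn3 were called in both siRNA libraries, while Sall4 and Tdh had no call there and were called in D12S+.

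The reprogramming factor genes themselves must be read with the retroviral cDNAs in mind, since reads from the vectors and from the exons of the endogenous genes cannot be told apart. Klf4 had its largest ratio at a region with its summit 1389 bp from the nearest start site, at 0.631 CPM in D0, 15.6 in D3 and 4.72 in D6T- (log2 ratio 2.90), and Myc reached 8.37 CPM in D3 and 3.69 in D6T- from 0.725 in D0. The region at the Sox2 start site had 0.441 and 1.82 CPM in D0 and D6T-. Both regions of Pou5f1, the gene of Oct4, were already high in D0 at 6.84 and 13.1 CPM, and had log2 ratios of 0.43 and 0.57, below the median of 1.13. The highest D6T- summits of these wide merged regions lay 2147 and 3316 bp from the nearest start site, the latter beyond the end of the gene. Their levels need not be those of the Pou5f1 start site.

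Genes of AP-1 subunits had 22 common regions, of which 21 were at least 2-fold higher in D6T- (95.5%, beside 55.9% of all common regions). Their 13 common promoter regions had log2 ratios from 1.07 to 2.34, with a median of 1.63 beside 1.68 for all common promoter regions. All 13 were at least 2-fold higher, beside 77.3% of all common promoter regions. The region at the start site of Fos had 0.757 CPM in D0, 1.65 in D3 and 3.46 in D6T-, and that of Jun 2.62, 5.06 and 7.53 CPM. Atf3, a stress-induced partner, had 1.70, 4.43 and 7.48 CPM. In the siRNA libraries the regions of Fos, Jun and Atf3 had 1.23 to 4.27 CPM. Not all promoter regions of the list were higher there than in D0. A Junb region 1352 bp from the nearest start site had 1.14 CPM in D0, 1.15 in D6 siNT and 0.964 in D6 siH3.3. Fosl1, which encodes Fra1, was among 7 of 12 genes with a gained promoter region, at 2.24 CPM in D6T-, 0.826 in D6 siNT and 0.643 in D6 siH3.3. The TEAD and YAP list, of the TEAD factors with their co-activators and targets, had a gained region at 8 of 10 genes, with 21 at Tead1, and 2 lost regions in all. Of its 40 common regions 30 were at least 2-fold higher.

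Lists of mesenchymal genes held more gained than lost regions, as did all protein-coding genes together (45085 gained and 16203 lost). Transcription factors of the epithelial to mesenchymal transition had gained regions at 9 of 10 genes, 30 of them at Tcf4, 14 at Prrx1 and 12 at Zeb1, and lost regions at 2, Tcf4 and Prrx2. At their promoters 6 genes had a gained and 2 a lost region. The lost ones lay upstream of annotated start sites inside Tcf4 and Prrx2. A gained region at an annotated start site inside Tcf4 had 2.71 CPM in D6T-, 1.32 in D3 and 1.10 and 1.18 in the siRNA libraries. The region at the beginning of the Tcf4 gene was common, at 1.07 CPM in D0 and 3.09 in D6T-. Genes of the TGF-beta pathway, which drives that transition, had gained regions at 14 of 16 genes and lost ones at 4. Collagen and matrix genes had gained regions at 19 of 21 and lost ones at 5, with a gained promoter region at 14 (66.7%) and a lost one at 1, Col6a3. The gained region at an annotated start site inside Col1a2 had 1.52 CPM in D3 and 1.17 in D6T-, with no call in either siRNA library. The genes of these lists were long, with medians of 46.4, 62.9 and 60.9 kb beside 15.5 kb for protein-coding genes, and the part of length in these counts was not tested. Among the H3.3 genes and chaperones, no promoter was gained or lost in 7 genes, and Cabin1, a subunit of the Hira complex, held 11 of the 13 lost regions.

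The labelled cell type was set against marker genes. D0 had a region at 10 of 12 fibroblast markers and D6T- at 10 of 12. Thy1, the marker of the sort, was the one with a lost promoter region. It had 0.410 CPM in D0, 0.562 in D3, no call in D6T-, either siRNA library or D9T-, and 0.625, 0.567 and 0.489 CPM in D12S+, D16S+ and iPSCs. All of these values were close to the calling limits. Lum had no region in either library, and Col3a1 had none in D0 and 6 gained ones. Common promoter regions of the fibroblast markers had a median log2 ratio of 1.08 (15 regions, -0.07 to 1.92), beside 1.68 for all common promoter regions. Markers of cells other than fibroblasts also had regions. In D0 these were at 6 of 7 endothelial, 7 of 7 haematopoietic, 2 of 6 skeletal muscle, 5 of 6 keratinocyte and 6 of 6 neural markers, and in D6T- at 6, 6, 5, 6 and 4. Most genes had regions: 66.9% of all protein-coding genes had a common region, 57.6% a gained and 23.1% a lost one. The share of all genes with a region in each library was not computed, so these counts do not tell cell types apart. In the muscle, neural, endothelial and haematopoietic lists most lost regions lay at a single gene each. Some genes held both kinds, such as Tie1 with 2 gained and 9 lost regions. The muscle list held 24 lost regions, 22 of them at Pax7, and 5 gained ones, at Myod1, Myog and Myf6. The neural list held 32 gained regions, 18 of them at Mtap2, and 12 lost ones, 10 of them at Sox10. The endothelial list held 19 gained and 13 lost regions, 9 of the latter at Tie1, and the haematopoietic list 8 gained and 12 lost ones, 9 of the latter at Laptm5. Lost promoter regions were present at 3 of 6 keratinocyte markers, Krt1, Krt5 and Sfn, at 0.378 to 0.568 CPM in D0.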

How the data were processed

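ATAC-Seq was measured in 9 libraries, 1 per condition, and D0, D6T- and both day 6 siRNA libraries entered the comparison. Per the methods, the authors mapped reads with STAR to mm9, filtered out reads with over 2 mismatches or more than 1 locus, removed duplicates with Picard and called peaks with MACS2 (2.1.0.20151222 per the file headers, with no control or local background, tags of 51 bases extended to 200 and a q-value cutoff of 0.05). The deposited values used are the pileup signal at each summit, as tags; the fold enrichment ratio and the −log10 of the q-value, also deposited, served as alternatives, and the −log10 of the p-value was not used. The methods state that mitochondrial reads were removed, but the deposited peak lists hold mitochondrial peaks, so the tag totals in the headers may include them. Likewise, some lists hold strong peaks in sequence that occurs several times in the genome, despite the stated filter on multiple loci.

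Peaks were merged with pandas 2.3.3 and numpy 2.4.6 (Python 3.11.15) and the pileup divided by the total tags of the library, per 1000000. Positions came from GENCODE vM1 on the mm9 assembly (promoter, 3 kb upstream of a TSS, then gene body, then intergenic, by midpoint). Of 11 motifs, letters were searched on both strands in 200 bp around the highest summit; SOX and octamer matches may overlap. For each region 15 words of 51 bases were counted in the genome with numba 0.67.0. The code recovered 16 of 16 known answers in simulated data. Depth, from 18669683 to 31714845 tags over the 4 libraries, sets the lowest callable level.

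Named genes were listed genes with a gained or lost promoter region or the most gained or lost regions of their list, and the 5 genes with the most gained and with the most lost regions. Named regions were the 5 gained ones highest in D6T- with a call in both siRNA libraries, the 5 lost ones highest in D0 with none, and the 5 common ones of highest and of lowest ratio with at least 20 tags in the lower library. Regions in unique sequence, the highest gained region of all and common promoter regions were added after their values were seen. Of the listed symbols absent from the annotation, 3 of 4 were matched through RefSeq synonyms. Members and lists were chosen with earlier results of these data known. Some of the named genes and regions are not reported here. Alternatives are given in the closing section.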

Additional observations from a re-analysis of the deposited data

Results flagged for a closer look

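Chromosomes X and M were outside the comparison. On chromosome X, D6T- held 3096 regions and D0 held 969, while D6 siNT and D6 siH3.3 held 857 and 855. The chromosome was listed here because the D6T- value lay above the D0 value in data that the comparison did not use. The estimated share of tags on chromosome M was 7.09% in D6T- and 2.32% in D0, with 5.90% in D6 siNT and 5.85% in D6 siH3.3. Its part in the ratios is given by the total tags without it, in the next paragraph. Outliers could not be sought, since no group held more than 1 library.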

How the results depend on the processing

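Of 70 recomputed values, 34 stayed within 1.5 times the count or within the interval of the value given and 36 moved further. A change of direction was possible only for the median log2 ratio, and 0 of its values changed sign. With the stronger 50% of regions in every library, 35132 were gained and 9338 lost, 26.9% of gained and 1.91% of lost regions had a siRNA library call, the median log2 ratio was 1.35, promoters held 13.6% of gained and 9.15% of lost regions, and AP-1 matches were in 37.3% and 29.6%. With equal numbers (80012, or 45312 where the siRNA libraries were used), 36609 were gained, the siRNA shares were 73.5% and 13.8%, and the median was 1.31. A common CPM floor gave siRNA shares of 27.2% and 2.17%, an overlap of at least 50% of the shorter region 25.2% and 1.55%, and gaps of up to 500 bp 29.2% and 2.03%. Fold enrichment gave a median log2 ratio of 0.96, and regions of 1 peak region of each library gave 1.09. Centring gave 6366 and 5780 regions at least 2-fold higher and lower, and a fold of 3 gave 15821 and 12. Promoters cut to 1 kb before and 100 bp after the TSS held 6.55% of gained and 4.52% of lost regions, and protein-coding genes alone 9.25% and 8.66%. AP-1 matches were in 20% and 6.73% of windows of 100 bp and 39.2% and 17.8% of windows of 400 bp. Added after seeing the data, leaving out non-unique sequence gave 26.2% for the gained siRNA share and 32.4% for AP-1 in gained regions, and total tags without chromosome M gave a median of 1.20. The cause of these moves was not tested beyond the construction of each setting. Low pileups limit single regions: 8 tags sufficed for a call in D6T- and 11 in D0. No paired analysis was possible because each condition had 1 library.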
